A study of Mus musculus with 7 samples.

Results

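The genes described here make, modify, store and burn fatty acids. They were chosen by name, as 36 of the 54532 features in a table of RNA sequencing counts, and each of the 36 symbols matched 1 row of the table. All 36 passed the filter on low counts and are among the 15441 genes tested. The cells were C3H10T1/2, an established mouse mesenchymal line that can form bone, fat, cartilage and muscle cells in culture, grown in serum-containing medium. Untreated cells gave the 3 libraries of the control group. The 4 OB libraries came from cells held for 3 days in osteoblast induction medium, which added dexamethasone (a synthetic glucocorticoid), ascorbic acid at 50 µM, β-glycerophosphate at 10 mM and penicillin-streptomycin. The untreated medium is not described as holding any of these additions, so the groups differ in all of them at once, and no single agent can be singled out. All libraries come from 1 cell line, and the design text describes the replicates as biological.

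Fatty acid synthesis starts in the cytosol, where ATP citrate lyase splits citrate into acetyl-CoA, acetyl-CoA carboxylase turns it into malonyl-CoA, and fatty acid synthase builds palmitate from both with NADPH. Elongases and desaturases then lengthen the chain and add double bonds, acyl-CoA synthetases activate it, and acyltransferases and lipins join it to glycerol as triglyceride for lipid droplets. Lipases release it again, carnitine palmitoyltransferase 1 commits it to the mitochondrion, and the beta-oxidation spiral shortens it to acetyl-CoA. Malonyl-CoA, the product of the carboxylases, inhibits carnitine palmitoyltransferase 1, which links synthesis and burning. SREBP-1, the product of Srebf1, is a transcription factor that drives many of the synthesis genes. Glucocorticoids are known to affect lipid storage and release in fat and liver cells, and osteoblasts are known to burn fatty acids.

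Promoter windows from RefSeq (GRCm38.p6, 250 bases before to 50 bases after a start site) were found for 31 of the 36 genes. Those of Cpt1a, Cpt1c and Elovl6 are shown because the first is the gene called below, the second its isozyme, and the third the gene nearest to the threshold among those higher in OB. That of Hadhb is shown because it also covers the start of Hadha, which lies head to head with it 86 bases away. Each reads 5′ to 3′ on the strand of its gene, with matches to the searched motifs in capitals.
Cpt1a, chr19:3323051-3323350, plus strand: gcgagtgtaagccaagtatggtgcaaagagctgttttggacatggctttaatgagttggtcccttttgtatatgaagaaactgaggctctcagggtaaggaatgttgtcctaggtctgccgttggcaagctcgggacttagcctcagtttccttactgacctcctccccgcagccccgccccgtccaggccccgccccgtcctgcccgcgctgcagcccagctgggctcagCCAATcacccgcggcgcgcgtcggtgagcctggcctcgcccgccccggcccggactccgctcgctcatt
Cpt1c, chr7:44974802-44975101, minus strand: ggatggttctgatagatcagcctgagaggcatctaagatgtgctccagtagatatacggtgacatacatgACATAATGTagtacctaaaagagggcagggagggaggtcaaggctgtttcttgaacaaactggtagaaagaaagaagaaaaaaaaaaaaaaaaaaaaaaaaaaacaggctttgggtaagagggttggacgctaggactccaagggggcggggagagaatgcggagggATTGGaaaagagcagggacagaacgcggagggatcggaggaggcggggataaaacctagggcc
Elovl6, chr3:129532136-129532435, plus strand: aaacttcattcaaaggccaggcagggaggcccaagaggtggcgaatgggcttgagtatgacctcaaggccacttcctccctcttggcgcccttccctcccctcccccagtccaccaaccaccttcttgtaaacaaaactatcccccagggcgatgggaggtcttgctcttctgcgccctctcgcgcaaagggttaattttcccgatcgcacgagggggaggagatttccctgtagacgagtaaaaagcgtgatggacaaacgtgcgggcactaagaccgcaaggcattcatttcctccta
Hadhb, chr5:30155003-30155302, plus strand: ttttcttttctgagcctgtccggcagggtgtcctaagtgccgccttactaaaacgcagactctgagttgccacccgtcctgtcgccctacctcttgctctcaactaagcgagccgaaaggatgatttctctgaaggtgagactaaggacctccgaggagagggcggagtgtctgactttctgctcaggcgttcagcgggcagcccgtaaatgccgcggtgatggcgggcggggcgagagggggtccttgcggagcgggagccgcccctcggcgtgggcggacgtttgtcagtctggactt
The capitals mark CCAAT, the box bound by NF-Y, in Cpt1a and, read as ATTGG on the other strand, in Cpt1c, and ACANNNTGT, a paired motif of the glucocorticoid receptor, in Cpt1c. Both strands were searched. The windows of Elovl6 and Hadhb held none of the 4 motifs searched. Across genes with a window, CCAAT was present in 16 of 31 members (51.6%) and in 41.1% of all genes, and ACANNNTGT in 3 members (Lipe, Cpt1c and Hadh, 9.68%) and in 7.9%. The sterol response element TCACNCCAC was found in 1 member, in an Acsl1 window as GTGGGGTGA at position -76 from the start site, and in 1.44% of all genes. The PPAR response element, a direct repeat with 1 base between its parts, was found in 0 members and in 0.0481% of all genes. These are letter matches in short windows, and binding was not measured.

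Total counts ranged from 21213328 to 46530017 per library. CPM here is a count divided by the TMM-scaled total of its library. On the unscaled totals 3 counts are worth 0.0645 to 0.141 CPM. The mean level of single members lay between 5.01 and 1825 CPM. By the prefix of their descriptions the libraries form 3 label sets. C1 marks control 1 and OB 1, C2 marks control 2 and OB 2, and control 3, OB 3 and OB 4 carry no C number. Control 3 was the highest of the controls for 14 members and the lowest for 20 (94.4% together, against 86.7% of all genes tested). OB 3 and OB 4 were the closest pair within a group, with a chi-square per degree of freedom of 13.6 against 31.8 to 148 for the other pairs. Of 10 markers of mesenchymal stromal cells 9 exceeded 1 CPM in at least 1 library, and Nt5e (CD73) stayed under 1 CPM in all 7. Of 10 adipocyte markers 7 stayed under 1 CPM in every library (Plin1, Cidec, Lep, Retn, Cfd, Cidea and Cd36, the last with no count at all), and the summed level was 5.04 to 12.4 CPM in control and 37.2 to 74.5 CPM in OB, of which Fabp4 held 32.8 to 57.8 CPM in OB. The summed level of 7 proliferation markers was 674 to 2166 CPM in control, with control 3 at the top, and 432 to 521 CPM in OB, and 5 of the 7 were lower in OB. The part of these markers in the results below was not tested, and in bulk RNA fewer cells of a type and less RNA per cell cannot be told apart.

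For 35 of the 36 genes no difference between control and OB passed the test, and 1 was lower. Of the 36 members 0 were higher and 1 was lower in OB at an adjusted p under 0.05 by the quasi-likelihood test of edgeR (Benjamini-Hochberg, over all genes tested), where 4.32% of all genes were higher and 3.72% lower. The lower member was Cpt1a, which encodes the liver-type carnitine palmitoyltransferase 1. The median log2 fold change of OB over control was -0.04 over the members and -0.00 over all genes tested. At an unadjusted p under 0.05, 2 members were higher and 6 lower, where 12.8% and 12.4% of all genes were. DESeq2 called 1 member higher (Elovl6) and 3 lower (Cpt1a, Acsl3 and Lpin2), and limma-voom 1 higher (Elovl6) and 4 lower (Cpt1a, Lpin2, Acadvl and Hadha). Both tools also called more of all genes in each direction than edgeR did, as counted in the section on processing below. With the replicate number as a block, edgeR called 1 member higher (Elovl6, adjusted p = 0.0398) and 2 lower (Cpt1a and Acsl3, 0.0188 and 0.0494). The count of all genes called under this block is not given, so these calls are not set against it. With the label set as a block edgeR called 3 higher (Elovl6, Lpin1 and Pnpla2) and 5 lower (Me1, Acsl3, Lpin2, Cpt1a and Acadl), where it called 1433 higher and 1256 lower of all genes. Among libraries with no C number, 1 control against 2 OB libraries, values are given without a test, since the spread would come from OB 3 and OB 4 alone.

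The median size of the change, without its sign, was 0.15 on the log2 scale over the members, 0.27 over all genes tested and 0.22 over the 10669 genes whose mean CPM lay in the members' range. For 28 of the 36 members (77.8%) the 95% interval of the log2 fold change lay within -1 and 1, which excludes a 2-fold difference in either direction at this confidence. That share was 61.3% over all genes tested and 77.8% over genes in the same CPM range. The other 8 members had intervals that reached past 2-fold on at least 1 side (Acacb, Elovl6, Acsl3, Lpin1, Lpin2, Dgat2, Pnpla2 and Mgll). The plot of log2 fold changes by role shows how narrow most intervals were. Control and OB values were fully apart for 6 members, with Elovl6 and Pnpla2 higher and Me1, Acsl3, Lpin2 and Cpt1a lower, where 13.2% of all genes tested lay wholly higher and 12.3% wholly lower.

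**Figure D1:**
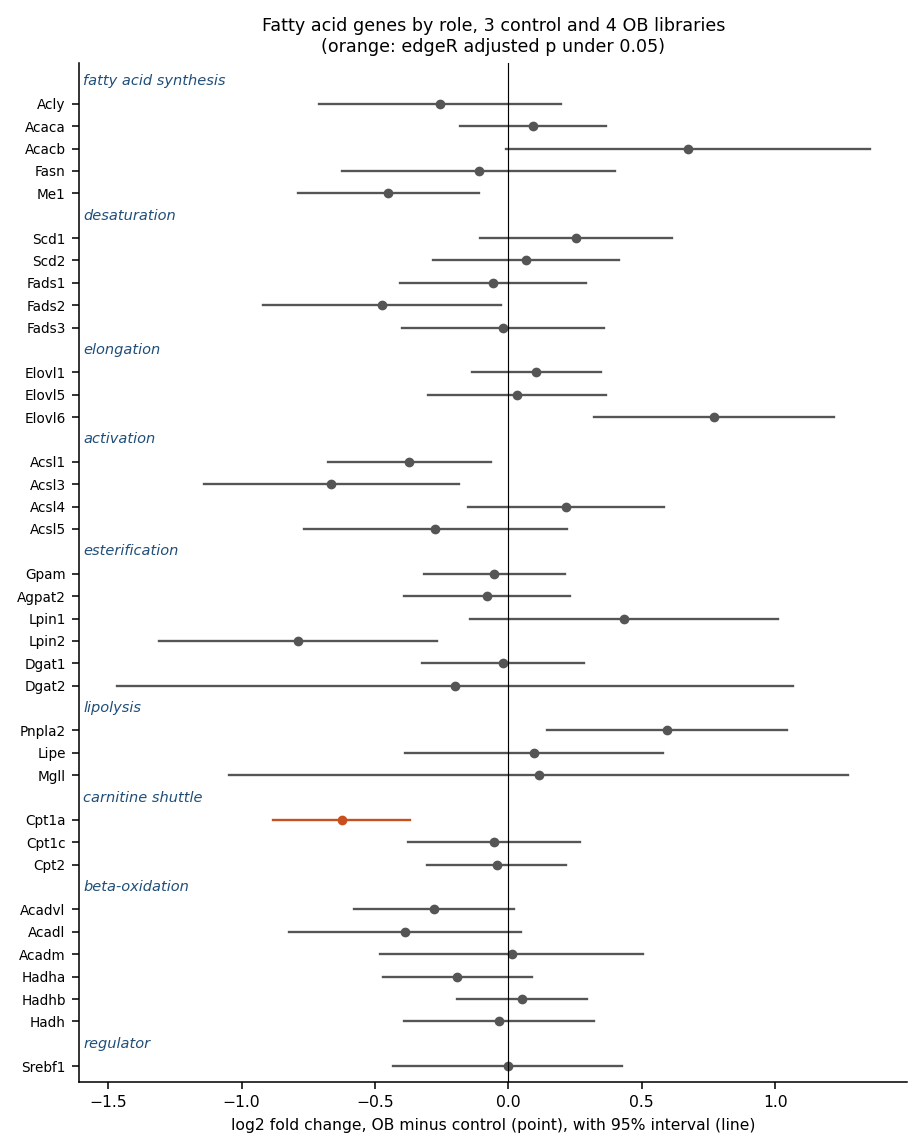
Log2 fold change of OB over control for the 36 genes, grouped by role, as points with 95% intervals as lines (3 control and 4 OB libraries). Only Cpt1a, drawn in orange at -0.63, passed an adjusted p of 0.05, and the intervals of Dgat2 and Mgll are the widest.

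**Figure D2:**
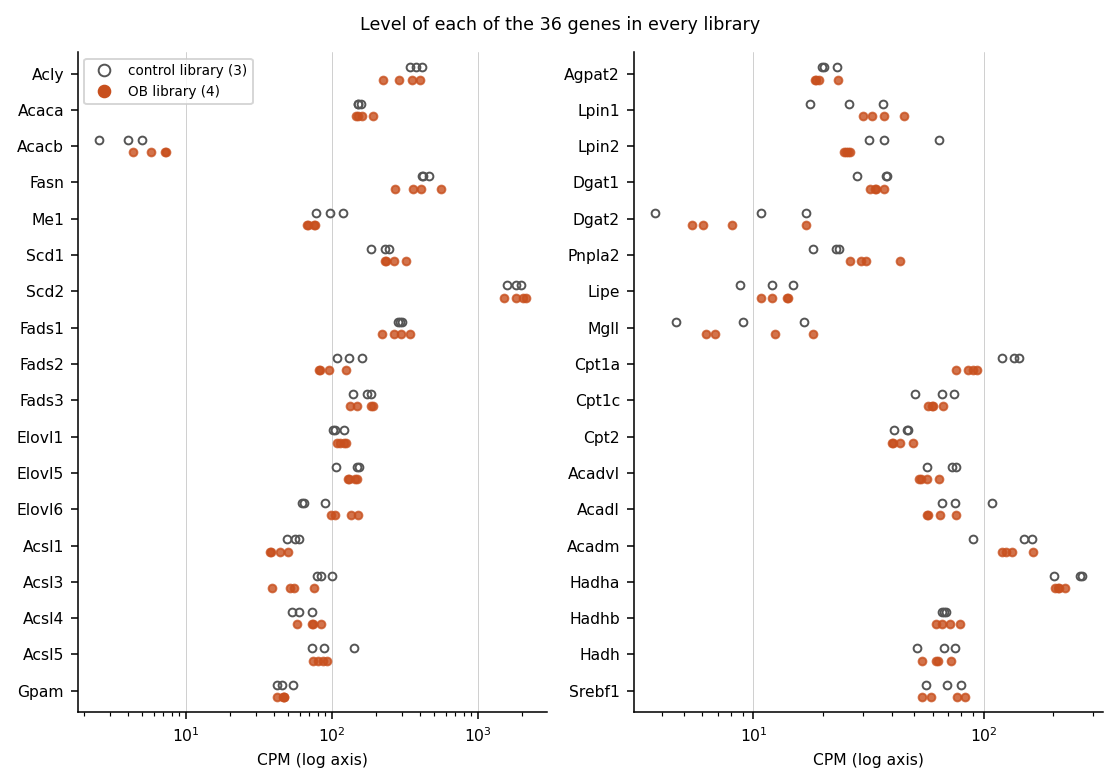
CPM of each gene in every library on a log axis, with open circles for the 3 control libraries and filled circles for the 4 OB libraries. The groups overlap for 30 of the 36 genes.

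None of the 5 synthesis genes passed by edgeR with all libraries and no block. Acly, the lyase that supplies cytosolic acetyl-CoA, measured 377, 413 and 344 CPM in libraries 1 to 3 of control and 403, 289, 350 and 224 CPM in libraries 1 to 4 of OB. Fasn, the synthase, had 411, 462 and 421 CPM in the control libraries and 557, 409, 360 and 271 CPM in the OB libraries. For both genes OB 1 was the highest and OB 4 the lowest of the OB libraries, and the control values lay inside the OB range for Fasn. Their log2 fold changes were -0.26 ± 0.20 (SE, 95% interval -0.71 to 0.20) for Acly and -0.11 ± 0.22 (-0.62 to 0.40) for Fasn, with edgeR adjusted p = 0.455 and 0.795. Acaca, the cytosolic carboxylase that sets the pace of synthesis, stood at 152 ± 4.37 CPM (SD, n = 3) and 162 ± 20.3 CPM (SD, n = 4), with a log2 fold change of 0.09 (-0.18 to 0.37). Srebf1 stood at 68.3 ± 11.7 and 68.2 ± 13.9 CPM, and its interval ran from -0.43 to 0.43. Of the Acaca 50-base words 30.4% recur in other genes, Gm5182 the closest, and of those of Me1 28.3% (Gm7049), and fragments with several alignments stayed out of the deposited counts.

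Acacb and Me1 had the highest and the lowest log2 fold change of the synthesis genes, and neither passed with all libraries and no block. Acacb, the carboxylase isozyme at the mitochondrial surface whose malonyl-CoA restrains fatty acid entry, was rare, at 4.02, 5.01 and 2.54 CPM in the control libraries and 4.35, 7.19, 7.32 and 5.79 CPM in the OB libraries. Only OB 1 fell inside the control range. Its log2 fold change was 0.67 ± 0.30 (95% interval -0.01 to 1.35, edgeR adjusted p = 0.204). Me1, the malic enzyme that supplies NADPH for synthesis, had 78.1, 96.3 and 120 CPM in the control libraries and 67.0, 68.6, 76.4 and 74.9 CPM in the OB libraries. Every OB library lay below every control library, by a small margin from control 1. Its log2 fold change was -0.45 ± 0.15 (-0.79 to -0.11, edgeR adjusted p = 0.104), -0.29 without control 3 and -0.48 with the label set as a block (adjusted p = 0.0265). Without control 1 Me1 also passed, at -0.60 (edgeR adjusted p = 0.0391). Me1 (ENSMUSG00000032418) lies at 86581371 to 86695953 on chromosome 9 of mm10.

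None of the 5 desaturase genes passed, and all 5 had intervals within 2-fold. Scd2, a stearoyl-CoA desaturase that makes monounsaturated fatty acids, had 1822, 1953 and 1574 CPM in the control libraries and 2021, 1823, 2126 and 1496 CPM in the OB libraries. Its neighbour Scd1, which encodes an enzyme of the same reaction, had 231, 244 and 186 CPM in the control libraries and 267, 229, 320 and 234 CPM in the OB libraries. The groups overlapped for both genes. Scd1 made up 12.2 ± 0.389% of the length-scaled sum of Scd1 and Scd2 in control and 13.7 ± 1.23% in OB, with the highest shares in OB 3 and OB 4. The log2 fold changes were 0.07 (95% interval -0.28 to 0.42) for Scd2 and 0.25 (-0.11 to 0.61) for Scd1, with edgeR adjusted p = 0.823 and 0.353. Scd2 and Scd1 lie tail to tail on chromosome 19 of mm10, 87.59 kb apart, and 3.97% of the 50-base words of Scd2 and 4.56% of those of Scd1 recur in other genes, each other's the closest.

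The Fads genes, 3 neighbours on chromosome 19, encode the delta-5 desaturase (Fads1), the delta-6 desaturase (Fads2) and a further desaturase (Fads3) and include the enzymes that turn essential fatty acids into long polyunsaturated ones. Fads2 had 108, 131 and 161 CPM in the control libraries and 95.8, 81.0, 125 and 82.1 CPM in the OB libraries. Only OB 3 reached the control range. Its log2 fold change was -0.47 ± 0.19 (95% interval -0.92 to -0.03, edgeR adjusted p = 0.176). Fads1 stood at 292 ± 9.93 CPM (SD, n = 3) and 280 ± 50.6 CPM (SD, n = 4), and Fads3 at 140, 173 and 186 CPM in control and 134 to 191 CPM in OB. The intervals of their log2 fold changes, -0.41 to 0.29 and -0.40 to 0.36, exclude a 2-fold difference.

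Among the 3 elongases Elovl6 came closest to the threshold. Elovl6 extends palmitate to stearate, the step after the synthase. It measured 62.4, 64.1 and 89.0 CPM in libraries 1 to 3 of control and 151, 99.1, 135 and 105 CPM in libraries 1 to 4 of OB. Every OB library was above every control library. The estimated fold was 1.70 (95% interval 1.25 to 2.33), or 0.77 ± 0.20 (SE) on the log2 scale, at an edgeR adjusted p of 0.0516. Its adjusted p was 0.00882 in DESeq2 and 0.00767 in limma-voom. It also passed in edgeR under the replicate block (0.0398), with the label set as a block (0.0389), without control 3 (0.0312) and among C1 and C2 libraries (0.98, adjusted p = 0.0440), and its adjusted p ran up to 0.165 when 1 library was left out. The log2 value among libraries with no C number was 0.41. Elovl6 (ENSMUSG00000041220) lies at 129532355 to 129638495 on chromosome 3 of mm10. Elovl1, which elongates saturated and monounsaturated chains to very long ones, and Elovl5, which elongates polyunsaturated ones, had log2 fold changes of 0.10 (-0.14 to 0.35) and 0.03 (-0.30 to 0.37).

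Of the 4 long-chain acyl-CoA synthetases, which activate fatty acids by joining them to coenzyme A, Acsl3 lay lowest in OB relative to control. Acsl3, a synthetase of the endoplasmic reticulum and lipid droplets, had 84.1, 78.5 and 99.3 CPM in the control libraries and 55.3, 38.9, 75.1 and 51.2 CPM in the OB libraries. The groups did not overlap, with OB 3 close to the lowest control. Its log2 fold change was -0.66 ± 0.21 (95% interval -1.14 to -0.18, edgeR adjusted p = 0.0933), and it passed under the replicate block, under the label set block and by DESeq2 (adjusted p = 0.0494, 0.0251 and 0.0389). Acsl1 stood at 55.0 ± 5.06 CPM (SD, n = 3) and 42.4 ± 5.93 CPM (SD, n = 4), with a log2 fold change of -0.37 (-0.68 to -0.07, edgeR adjusted p = 0.128), and made up 9.27% and 8.80% of the length-scaled sum of the 4 genes. Acsl4, which prefers arachidonate, had a log2 fold change of 0.22 (-0.15 to 0.58). Acsl5 had 73.3, 88.0 and 141 CPM in the control libraries and 74.6 to 92.1 CPM in OB. Control 3 was alone at the top, and the log2 fold change was -0.27 with it and 0.04 without it. Of the Acsl1 exon bases 9.91% overlap other genes and of those of Acsl5 8.31%, mostly Gm45244 and Zdhhc6 on the opposite strand. In a count with no option for strand or overlap, fragments within such shared bases are assigned to neither gene.

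None of the 6 genes of triglyceride assembly passed by edgeR with the filter on low counts, all libraries and no block. Lpin2, a phosphatidate phosphatase gene, had 31.7, 36.9 and 64.0 CPM in the control libraries and 24.7, 25.3, 26.3 and 25.9 CPM in the OB libraries. The OB libraries were nearly equal (25.5 ± 0.688 CPM, SD, n = 4), all below the controls, and control 3 was far above control 1 and 2. The log2 fold change was -0.79 ± 0.23 (95% interval -1.31 to -0.27, edgeR adjusted p = 0.0721), -0.43 without control 3, -0.45 among C1 and C2 libraries and -1.31 among libraries with no C number. With the label set as a block it passed at -0.80 (adjusted p = 0.0337). DESeq2 and limma-voom also called Lpin2 lower (adjusted p = 0.0204 and 0.0490). So did edgeR with no filter (adjusted p = 0.0432) and without control 1 (0.0349). Lpin1, the phosphatase with the best known role in fat tissue, had 36.5, 26.0 and 17.7 CPM in the control libraries and 45.1, 36.8, 32.7 and 29.8 CPM in the OB libraries. In every label set the OB libraries were above the control of that set, while the groups overlapped across sets. Its log2 fold change was 0.43 ± 0.25 (-0.15 to 1.01, edgeR adjusted p = 0.324), and 0.20 without control 3. With the label set as a block it passed at 0.57 ± 0.13 (adjusted p = 0.0327). Lpin2 (ENSMUSG00000024052) lies at 71182560 to 71249817 on chromosome 17 and Lpin1 (ENSMUSG00000020593) at 16535669 to 16610966 on chromosome 12.

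The acyltransferases showed narrow intervals around 0 with 1 exception. Gpam, the mitochondrial glycerol-3-phosphate acyltransferase, stood at 47.2 ± 6.40 CPM (SD, n = 3) and 45.5 ± 2.25 CPM (SD, n = 4), with an interval of -0.32 to 0.21. Agpat2, which adds the second acyl chain, and Dgat1, which adds the last, had intervals of -0.39 to 0.23 and -0.33 to 0.28. Dgat2, the other enzyme of the last step, was uneven and measured 10.8, 16.9 and 3.73 CPM in libraries 1 to 3 of control and 6.02, 16.9, 5.42 and 8.07 CPM in libraries 1 to 4 of OB. Control 2 and OB 2 were the highest of their groups at the same level. Its log2 fold change was -0.20 ± 0.55 (-1.47 to 1.07, edgeR adjusted p = 0.853), an interval that includes 2-fold differences in both directions, and the SE was 0.29 under the replicate block.

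All 3 lipolysis genes had positive log2 fold changes, and none passed without a block. Those of Lipe and Mgll did not keep their sign when 1 library was left out (down to -0.09 and -0.25). Pnpla2 encodes adipose triglyceride lipase, which removes the first fatty acid from stored triglyceride. It had 23.5, 22.8 and 18.1 CPM in the control libraries and 30.7, 43.3, 26.2 and 29.3 CPM in the OB libraries. Every OB library was above every control library, with OB 2 the highest. The estimated fold was 1.51 (95% interval 1.10 to 2.06), or 0.59 ± 0.20 (SE) on the log2 scale, at an edgeR adjusted p of 0.106, and it passed with the label set as a block (0.64, adjusted p = 0.0236). Lipe, the hormone-sensitive lipase that acts next, stood at 11.9 ± 3.10 CPM (SD, n = 3) and 12.7 ± 1.63 CPM (SD, n = 4), with an interval of -0.39 to 0.58, and 15.6% of its exon bases overlap other genes, mostly 4732471J01Rik on the opposite strand. Mgll, which splits off the last fatty acid, had 9.01, 16.6 and 4.604 CPM in the control libraries and 12.4, 18.1, 6.81 and 6.21 CPM in the OB libraries. As for Dgat2, control 2 and OB 2 were the highest of their groups and control 3 the lowest. The SE of its log2 fold change of 0.11 was 0.50, and 0.18 under the replicate block, where the value was 0.38 (edgeR adjusted p = 0.257). Pnpla2 (ENSMUSG00000025509) lies at 141455198 to 141460743 on chromosome 7.

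**Figure D3:**
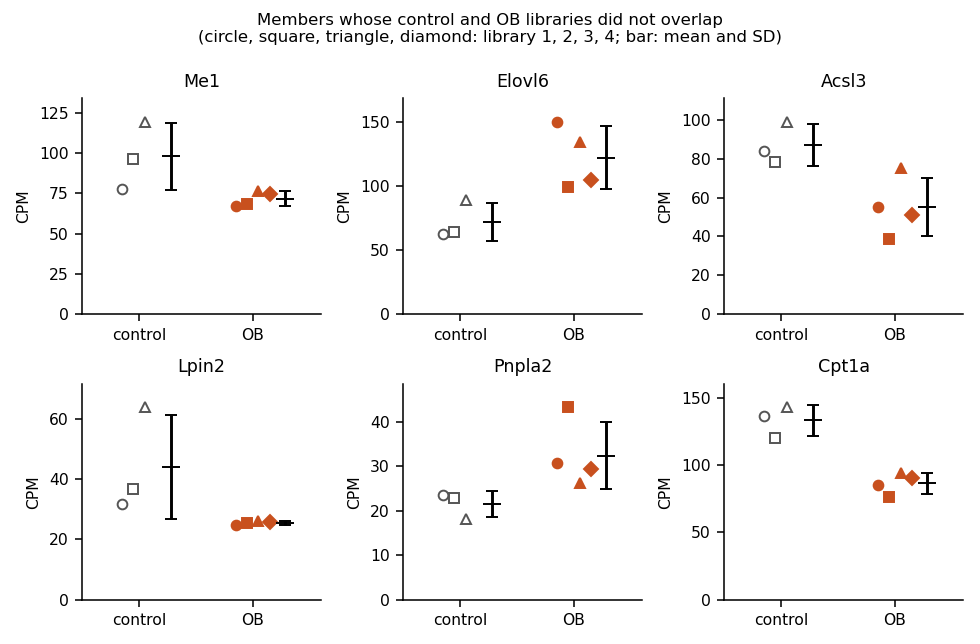
CPM in each library of the 6 genes whose control and OB libraries did not overlap, with the mean and SD beside the points (3 control and 4 OB libraries, axes from 0). Control 3 (open triangle) is the highest control for Me1, Elovl6, Acsl3, Lpin2 and Cpt1a, and the OB values of Lpin2 lie within 24.7 to 26.3 CPM.

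Cpt1a fell in OB. Its product sits on the outer mitochondrial membrane and transfers long acyl chains to carnitine, the committed step of their oxidation. It measured 136, 120 and 143 CPM in libraries 1 to 3 of control and 85.2, 76.3, 93.8 and 90.1 CPM in libraries 1 to 4 of OB. All OB libraries lay well below all controls, and the spread in both groups was small (133 ± 11.7 CPM, SD, n = 3, and 86.3 ± 7.57 CPM, SD, n = 4). The estimated fold was 0.648 (95% interval 0.543 to 0.774), or -0.63 ± 0.11 (SE) on the log2 scale, at an edgeR adjusted p of 0.0184. The value was -0.66 among C1 and C2 libraries (edgeR adjusted p = 0.0258) and -0.65 among libraries with no C number, given without a test because that set has 1 control. The call ended without OB 1 (adjusted p = 0.0655) and held without each of the other 6 libraries (0.0290 to 0.0480). Cpt1a (ENSMUSG00000024900) lies at 3323301 to 3385732 on chromosome 19, with no exon bases shared with another gene.

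Neither of the other carnitine shuttle genes passed. Cpt1c, an isozyme best known from neurons that shows little transferase activity, had 74.1, 65.8 and 50.1 CPM in the control libraries and 60.5, 59.6, 66.3 and 57.5 CPM in the OB libraries. The OB values lay inside the control range, and the log2 fold change was -0.06 (95% interval -0.38 to 0.27). Cpt2, which moves the acyl chain back to coenzyme A inside the mitochondrion, stood at 44.6 ± 3.45 CPM (SD, n = 3) and 43.3 ± 4.22 CPM (SD, n = 4), with an interval of -0.30 to 0.22. Of the length-scaled sum of Cpt1a and Cpt1c, Cpt1c made up 29.4, 29.6 and 21.2% in control and 35.3, 37.5, 35.2 and 32.9% in OB. The shares did not overlap, and the difference between the changes of both genes was not tested.

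Beta-oxidation genes did not pass by edgeR with all libraries and no block, and 6 of 6 had intervals within 2-fold. Acadvl, Acadl and Acadm encode acyl-CoA dehydrogenases for very long, long and medium chains, which take the first step of each round. Acadvl had 73.1, 76.1 and 56.8 CPM in the control libraries and 56.9, 63.8, 52.3 and 53.6 CPM in the OB libraries. Acadl had 75.1, 66.0 and 109 CPM in the control libraries and 56.8, 57.1, 76.0 and 64.8 CPM in the OB libraries. Control 3 lay at the lower end for Acadvl and at the upper end for Acadl. Their log2 fold changes were -0.28 ± 0.13 (95% interval -0.58 to 0.02) and -0.39 ± 0.19 (-0.82 to 0.05), with edgeR adjusted p = 0.229 and 0.245, and that of Acadl was -0.15 without control 3. Acadl passed with the label set as a block (-0.44, adjusted p = 0.0446). Limma-voom called Acadvl lower (-0.41, adjusted p = 0.0267). Of the Acadvl exon bases 42.9% overlap other genes, mostly Dvl2 on the opposite strand, so its count is uncertain. Acadm had 163, 150 and 89.6 CPM in the control libraries and 121 to 164 CPM in OB, with a log2 fold change of 0.01 (-0.48 to 0.51).

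Hadha and Hadhb encode the alpha and beta subunits of the mitochondrial trifunctional protein, which carries out the remaining steps for long chains, and they start head to head in the window printed above. Hadha had 267, 261 and 203 CPM in the control libraries and 205, 225, 211 and 214 CPM in the OB libraries. Hadhb had 67.0, 68.9 and 66.2 CPM in the control libraries and 71.4, 79.3, 62.1 and 66.3 CPM in the OB libraries. Control 3 was the lowest control for both, by a wide margin for Hadha and a narrow one for Hadhb. The log2 fold changes were -0.19 (95% interval -0.47 to 0.09) for Hadha and 0.05 (-0.19 to 0.30) for Hadhb. Limma-voom called Hadha lower (-0.29, adjusted p = 0.0469). Of the Hadhb 50-base words 19.7% recur in other genes, Gm13910 the closest. Hadh, the dehydrogenase for short and medium chains, had a log2 fold change of -0.03 (-0.39 to 0.32).

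Compared per kilobase of deposited exon length, the genes kept the same ends of the order in both groups. Scd2 was the highest of the 36 in both groups, at 327 ± 35.3 CPM per kilobase (SD, n = 3) in control and 342 ± 50.8 (SD, n = 4) in OB. Next in control came Fads2, Fads1 and Acly at 88.4 ± 17.7, 84.4 ± 2.87 and 71.6 ± 6.54 CPM per kilobase, whose first 2 do not differ beyond their spread. Acacb was the lowest in both groups, at 0.401 ± 0.129 and 0.640 ± 0.145 CPM per kilobase, and made up 4.31% and 6.43% of the length-scaled sum of Acaca and Acacb. Elovl6 went from place 25 to place 15 and Cpt1a from place 12 to place 14. The storage and lipolysis genes Lpin1, Lpin2, Dgat2, Lipe and Mgll lay at 1.98 to 3.61 CPM per kilobase in control and at 2.09 to 3.74 in OB. Deposited exon lengths join all exons of a gene, up to 17074 bases for Acaca, which lowers the value of genes with many transcripts.

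**Figure D4:**
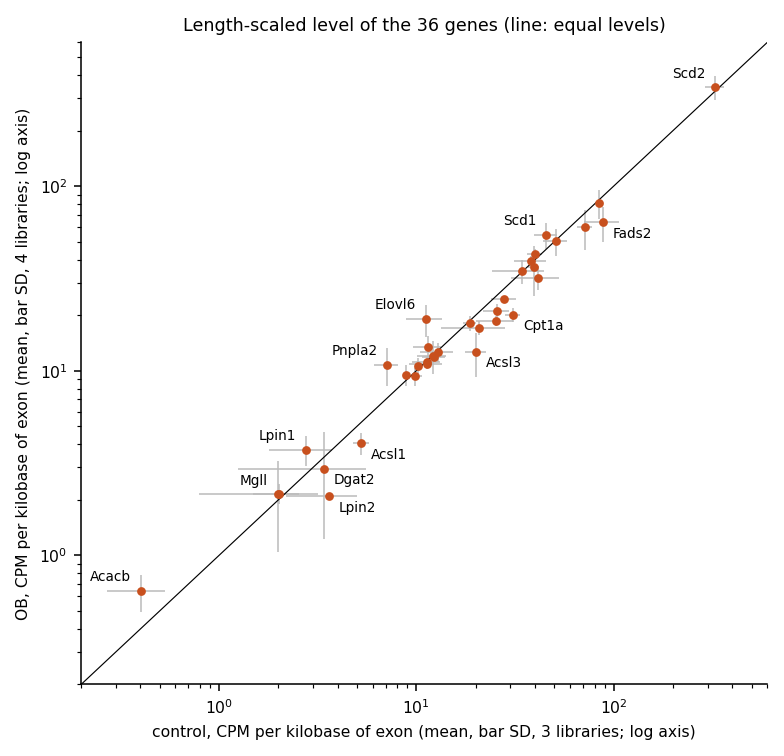
CPM per kilobase of exon in OB against control for the 36 genes on log axes, as means with SD bars (3 control and 4 OB libraries), with the line of equal levels. Elovl6 lies above the line and Cpt1a and Acsl3 below it, and Scd2 and Acacb mark the ends.

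The spread between libraries differed widely among the genes. The coefficient of variation ran from 2.10% (Hadhb) to 63.1% (Dgat2) in control, with a median of 15.6%, and from 2.69% (Lpin2) to 58.3% (Dgat2) in OB, with a median of 14.1%. It was larger in control for 20 of 36 members. For Fasn and Acly it was 6.23% and 9.13% in control and 30.0% and 24.5% in OB, whereas for Acsl5 and Lpin2 it was 35.3% and 39.3% in control and 9.19% and 2.69% in OB.

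Further genes of fatty acid handling were described from 6 fixed lists. Of 105 such genes 88 were tested, and by edgeR 11 were higher, 0 lower and 77 did not pass, where 4.32% of all genes were higher and 3.72% lower. Their median log2 fold change was 0.21. At an unadjusted p under 0.05, 22 were higher and 4 lower, where 12.8% and 12.4% of all genes were. DESeq2 called 2 lower and limma-voom 4 lower. Without control 2 there were 2 higher, without OB 1 3, without OB 3 or OB 4 4 each, without OB 2 5 and without control 1 6. Among storage genes 3 of 15 tested rose. Lpin3, the third lipin gene, had 3.45, 3.56 and 7.70 CPM in the control libraries and 21.7, 21.6, 22.5 and 20.3 CPM in the OB libraries. All OB libraries were far above the controls and close to each other, with a log2 fold change of 2.14 ± 0.30 (95% interval 1.45 to 2.84, edgeR adjusted p = 0.0101), and the call held whichever library was left out. Agpat3 and Agpat5, acyltransferases of glycerolipid synthesis, both rose, from means of 167 and 23.7 CPM in control to 247 and 48.5 CPM in OB (edgeR adjusted p = 0.0276 and 0.0408). Of the Agpat5 exon bases 18.9% overlap other genes, mostly Gm35934 on the opposite strand. The call of Agpat3 held only without control 3, and that of Agpat5 only without control 3 or OB 2.

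Of 22 further genes of mitochondrial oxidation, all tested, 3 were higher and 19 did not pass. Acot1, a cytosolic thioesterase that releases fatty acids from coenzyme A, had 1.79, 1.51 and 1.27 CPM in the control libraries and 9.31, 5.48, 11.1 and 10.3 CPM in the OB libraries. Pdk4, the kinase that shuts off pyruvate oxidation and so spares glucose when fat is burned, had 124, 106 and 185 CPM in the control libraries and 674, 340, 439 and 409 CPM in the OB libraries. The groups were well apart for both genes. Their log2 fold changes were 2.56 ± 0.30 and 1.75 ± 0.29 (edgeR adjusted p = 0.00613 and 0.0149), and the call of Acot1 held without each library in turn while that of Pdk4 ended without control 2 (0.0580). Acadsb, a dehydrogenase of branched short chains that also serves isoleucine breakdown, rose from 70.9 ± 14.8 CPM in control (SD, n = 3) to 127 ± 9.97 CPM in OB (SD, n = 4), a log2 difference of 0.84 (edgeR adjusted p = 0.0214), and its call ended without control 2 or any of OB 1 to 4 (up to 0.0671). Of the Acot1 50-base words 19.2% recur in other genes, Acot2 the closest, and Acot2 itself stood at 26.1, 26.2 and 20.3 CPM in the control libraries and 16.8, 16.7, 18.7 and 16.6 CPM in the OB libraries (log2 fold change -0.49, edgeR adjusted p = 0.0628).

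Peroxisomal oxidation genes had positive log2 fold changes in 14 of 14 tested, from 0.15 to 0.60 with a median of 0.32, where the median over all genes tested was -0.00. Of these 1 was higher and 13 did not pass, where 4.32% of all genes were higher. In 6 every OB library was above every control library, where 13.2% of all genes were so placed. Acox3, an acyl-CoA oxidase of branched chains, rose from 34.8 ± 5.02 CPM in control (SD, n = 3) to 51.3 ± 5.56 CPM in OB (SD, n = 4), a log2 difference of 0.56 (edgeR adjusted p = 0.0471). When each library was left out in turn, the call held only without control 1, and the replicate block ended it at an adjusted p of 0.0527. Scp2, a thiolase and lipid carrier gene, had an interval of -0.01 to 0.67, and 29.7% of its 50-base words recur in other genes, Scp2-ps2 the closest.

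**Figure D5:**
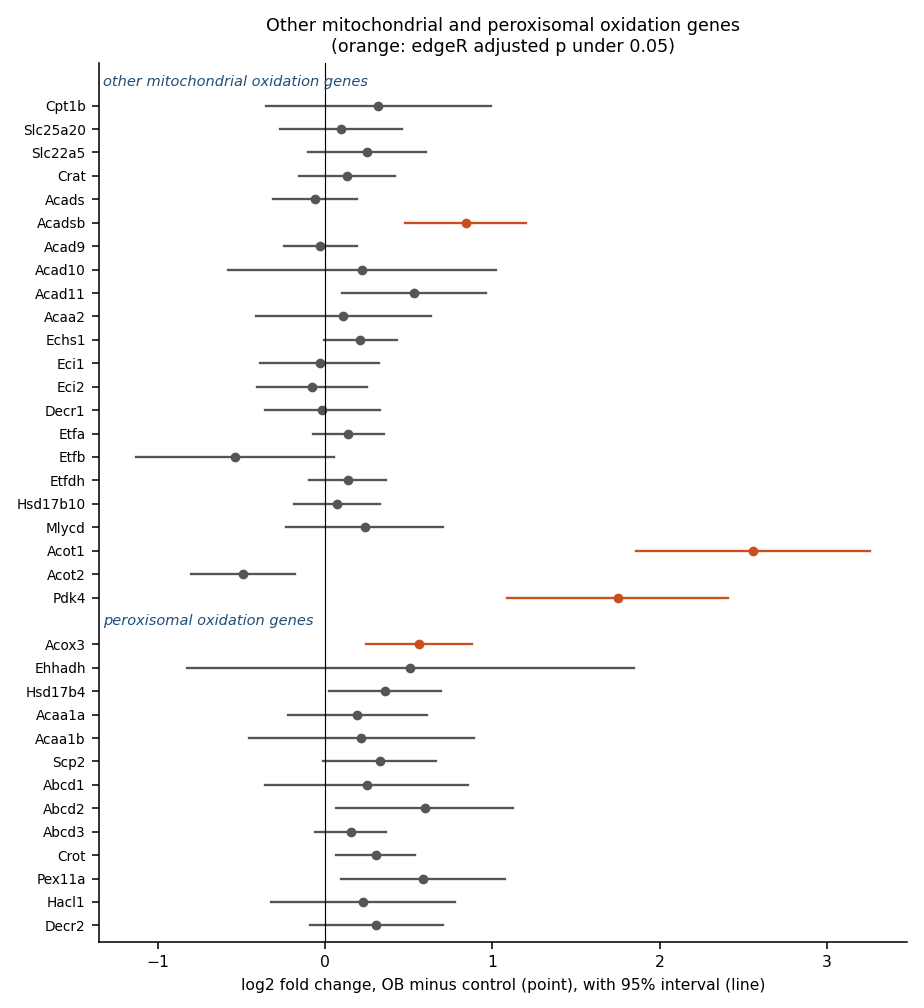
Log2 fold change of OB over control, as points with 95% intervals as lines (3 control and 4 OB libraries). Shown are 22 further genes of mitochondrial oxidation or linked to it. The others are 13 of the 14 tested genes of peroxisomal oxidation, 1 not being reported here. Acot1, Pdk4, Acadsb and Acox3, in orange, passed an adjusted p of 0.05, and all 13 peroxisomal points lie right of 0.

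Among other genes of chain making, 1 of 14 tested was higher and 0 lower, where 4.32% of all genes were higher and 3.72% lower. The median log2 fold change of the 14 was 0.03, with 6 negative. Hacd1, a dehydratase of the elongation cycle, rose from 18.3 ± 1.88 CPM in control (SD, n = 3) to 26.4 ± 1.51 CPM in OB (SD, n = 4), a log2 difference of 0.53 (edgeR adjusted p = 0.0400). The call held only without control 3 when each library was left out, and the replicate block ended it at an adjusted p of 0.0645. Of its 50-base words 26.9% recur in other genes, Gm11451 the closest. Tecr, the reductase of the same cycle, and Slc25a1, the carrier that exports citrate from the mitochondrion, had log2 fold changes of -0.27 (95% interval -0.58 to 0.04) and -0.24 (-0.56 to 0.08). Hsd17b12, close to Slc25a1 in mean CPM, had a log2 fold change of -0.12 (-0.59 to 0.35). Of other lipolysis genes 0 of 7 tested passed by edgeR, DESeq2 or limma-voom, with 1 higher and 1 lower at an unadjusted p under 0.05 by edgeR. Lipa, the lysosomal acid lipase, stood at 284 ± 35.0 and 234 ± 9.45 CPM, and Ddhd2, a triglyceride lipase gene, at 64.5 ± 6.89 and 79.1 ± 5.11 CPM.

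Of 16 tested regulators 3 were higher and 0 lower, where 4.32% of all genes were higher and 3.72% lower. The median log2 fold change of the 16 was 0.06, with 7 negative and values down to -0.57. In 5 every OB library lay above every control library and in 2 below, where 13.2% and 12.3% of all genes were so placed. Mlxip (MondoA), a glucose-sensing transcription factor, had 71.8, 63.6 and 56.2 CPM in the control libraries and 115, 105, 94.1 and 109 CPM in the OB libraries. The groups did not overlap, at 0.73 ± 0.12 on the log2 scale (edgeR adjusted p = 0.0150), and the call ended without control 2 or OB 1 (up to 0.0625). Nr1h3 (LXR alpha), a sterol receptor that acts on Srebf1, rose from 0.659 ± 0.434 CPM in control (SD, n = 3) to 2.70 ± 0.315 CPM in OB (SD, n = 4), a log2 difference of 1.98 (edgeR adjusted p = 0.0484). Pparg, the fat cell receptor, rose by 0.54 on the log2 scale (edgeR adjusted p = 0.0454). The call of Nr1h3 held only without control 3 and that of Pparg ended whichever of the 7 libraries was left out, and the replicate block ended both, at adjusted p = 0.0659 and 0.0512. Srebf1 itself, as given above, showed a difference smaller than its spread between libraries.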

How the data were processed

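Messenger RNA was sequenced in 7 libraries, and per the submitters' processing notes reads passed through Trimmomatic, HISAT2 and featureCounts on mm10 (the sources used here give no version of the trimmer or aligner). The deposited values are whole fragment counts per gene, per the file headers from featureCounts 1.6.4 over Ensembl 94 exons, counted with no option for strand, multi-mapping or overlap, and not normalised. The deposited exon length, another value per the file headers, was used for levels per kilobase. Columns carry numbers only and were matched to samples through the inputs of the counting command on the table's header line, a match with no independent check. A symbol was found for 54409 of 54532 features.

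The analysis used edgeR 4.0.16 in R 4.3.3 (filterByExpr, TMM factors 0.981 to 1.024, quasi-likelihood test, common biological coefficient of variation 26.9%) over 15441 genes at an adjusted p of 0.05. SEs come from the F statistic, and 95% intervals from the SE and the moderated degrees of freedom. P-values measure the spread between libraries, which the design text calls biological replicates without naming separate cultures. Alternatives were other scalings, no filter, DESeq2 1.42.0, limma-voom (limma 3.58.1), blocks, label sets and leaving out each library. After the data were seen, a fit with OB 3 and OB 4 summed was added. Deviations from group means correlated at 0.17, 0.52 and 0.40 for replicate numbers 1, 2 and 3, above the bound of 0.1 for pairs, although the numbers follow the label sets and OB 4 is alone in its block. Control 2 with OB 1 (0.21) and control 3 with OB 4 (0.27) also exceeded the bound. The other pairs of unlike number lay below it. The edgeR fit with and without the replicate block, DESeq2 and limma-voom were checked on simulated data that held no label set or pair effect. The other alternatives were not checked in this way. Recurring 50-base words were counted in GENCODE M21 transcripts of the same build. All 36 members are named, and of each further list up to 4 called genes by p, with the 2 of highest mean CPM added where fewer than 2 passed. Slc25a1, next after Hsd17b12 by mean CPM over both groups, is named as well. Other genes outside this rule (Acot2 here and the rare genes of the closing section) were named after their values were seen. Members and lists were chosen with earlier results of these data known. A gene that this rule names is not reported here.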

Additional observations from a re-analysis of the deposited data

Results flagged for a closer look

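In the OB group 1 library stood apart from the other 3 for 2 of the 36 genes, by the gap to the nearest library as a share of the range. Chance alone sets a library apart in this way in about 1 in 20 groups. For Gpam, OB 1 stood at 42.1 CPM and the others at 46.5 to 46.8 CPM. For Agpat2, OB 2 stood at 23.3 CPM and the others at 18.5 to 19.3 CPM. The highest control of Agpat2 was also replicate 2, at 23.1 CPM.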

How the results depend on the processing

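With the replicate number as a block, 1 of the 36 members was higher and 2 were lower, against 0 and 1 without the block. The count of all genes called under the block is not given. The block also ended the calls of Hacd1, Acox3, Nr1h3 and Pparg named beside their values, and changed no other call among the 36 members and the 11 called genes outside them. Members called higher and lower numbered 1 and 1 under upper-quartile scaling and among C1 and C2 libraries, 1 and 2 with no filter, 1 and 3 by DESeq2, 1 and 4 by limma-voom, 3 and 5 with a label set block, and 9 and 10 among libraries with no C number. Leaving out 1 library gave 0 to 1 higher and 0 to 3 lower. All genes called higher and lower numbered 1295 and 1136 by DESeq2, 1247 and 1081 by limma-voom, 1433 and 1256 with a label set block, 3052 and 3413 with no C number only, and 367 and 216 with OB 3 and OB 4 summed (an alternative chosen after seeing the data). C1 and C2 libraries gave 1030 higher. Leaving out 1 library gave 190 to 575 higher and 104 to 703 lower. Other pathway genes called higher numbered 20 with a label set block, 35 with no C number only, 4 with OB 3 and OB 4 summed and 2 to 9 without 1 library. Those called lower numbered 2 by DESeq2 and with a label set block, 4 by limma-voom and among C1 and C2 libraries, 7 with no C number only and 0 to 3 without 1 library. Among libraries with no C number the log2 fold changes of Dgat2 and Hadh turned to 0.84 and 0.39, and the cause was not tested. Of 612 member values under up to 17 alternatives 60 had the other sign, 58 of them with neither value passing, and 16 members kept their sign throughout. The set with no C number has 1 control library, whose spread is assumed to be that of OB 3 and OB 4, the closest pair, so its calls support nothing. Dgat2 and Mgll, with the widest intervals, are limited by their spread between libraries, and rare genes by depth.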

Other observations

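Several well known genes of fat handling were too rare to test. Cd36, the fatty acid translocase, had 0 counts in every library, which at 3 counts allows up to 0.0645 to 0.141 CPM per library on unscaled totals. Ppara, the receptor that drives fatty acid oxidation in liver, had 4 counts over the 3 control libraries and 8 over the 4 OB libraries. Mlxipl, the glucose-sensing factor of liver lipogenesis, had 2 and 7 counts, and Ppargc1a, a coactivator of mitochondrial genes, 33 and 35, with the highest level of each group in replicate 2. Plin1, the coat protein of adipocyte lipid droplets, had 1 and 38 counts, and all 38 came from OB 2, with 0 in OB 1, OB 3 and OB 4. Cidec, which enlarges the droplets, had 0 and 9 counts, found in OB 2 and OB 3 only. Acsl6, a synthetase best known from brain, had 5 and 24. Mogat2, an acyltransferase best known from the intestine, had 60 and 21. These are pooled counts from libraries of unequal depth, and no comparison was made.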
